A study of Mus musculus with 8 samples.

Results

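Tmem97 and 7 genes of cholesterol synthesis and its control, namely Hmgcs1, Sqle, Idi1, Fdft1, Lss, Insig1 and Srebf2, were followed in RNA-Seq libraries of mouse dental pulp. The genes were found by symbol among 12148 genes in the deposited table, and 8 of 8 were present. Tmem97 was taken because the study lists it among genes with earlier reported axonal expression that were lower in the mutants in its RNA-Seq. The libraries analysed here are part of that RNA-Seq. The other 7 genes were named for their place in the sterol pathway, with earlier results of these data known. The question was whether Tmem97 moved with the sterol genes or apart from them. Because the genotype difference chose Tmem97, the differences of the 8 genes are given as values with intervals and without a test. Tests are given for genes outside this set and for co-variation within a genotype.

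The libraries came from the dental pulp (DP) of mandibular first molars at postnatal day 7 (P7), on the C57BL/6J strain. There were 4 libraries from Osterix-Cre controls and 4 from Osterix-Cre:Tgfbr2f/f mice, called Tgfbr2cko, so that both genotypes carried the Cre transgene. The Osterix promoter drives Cre in the mesenchyme that forms odontoblasts and pulp cells, and cells outside that lineage keep the TGFβ receptor gene Tgfbr2. The pulps of the left and right molars were combined for a sample, and the labels do not say whether each library is a separate animal. A number earlier in the titles repeats within genotypes, with 49 and 50 sharing the number 4, 54 and 55 the number 2, and 53 and 56 the number 3. If such libraries shared an animal, there would be 3 controls and 2 mutants, and p-values over 8 libraries would be too small. Libraries are named here by the last number in their titles, with 49 to 52 given to Osterix-Cre samples and 53 to 56 to Tgfbr2cko samples. Between 8682872 and 13539670 reads were counted per library. Tgfbr2 itself had log2 CPM values of 7.16, 7.62, 7.64 and 7.52 among controls against 7.02, 7.00, 7.16 and 7.61 among mutants. CPM is counts scaled to a fixed library total, and 0.5 read is added before the log. The Tgfbr2 difference was -0.29 (SE 0.171, unadjusted p = 0.119 and adjusted p = 0.79 by limma, exact permutation p = 0.143), and Tgfbr2cko 55 and 56 lay within the control range, 55 at the level of Osterix-Cre 49. Without Tgfbr2cko 56 it was -0.42 (unadjusted p = 0.0136 by limma), and without Osterix-Cre 49 it was -0.39 (unadjusted p = 0.0411 by limma). Tgfbr2cko 56 also held 18.45% of its reads on the enamel matrix genes Amelx and Ambn, against 0.326% to 2.74% in the other 7, so values without it are given beside results that it moves.

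Cholesterol is built from acetyl-CoA through mevalonate, isoprenoid units, squalene and lanosterol. The membrane-bound transcription factor SREBP2, encoded by Srebf2, raises the genes of this route when sterols in the endoplasmic reticulum are low, and INSIG proteins hold it back when sterols are plentiful. TMEM97, also known as the sigma-2 receptor, is a sterol-responsive protein of the endoplasmic reticulum and lysosome that belongs to the EXPERA family with the sterol isomerase EBP. It binds the lysosomal cholesterol carrier NPC1, and it is known as an SREBP target in cultured cells. It has also been studied in neurons, so its place on an axonal list and its place among the sterol genes are both background.

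SREBP2 acts with the factors NF-Y and Sp1, so the 250 bases before the RefSeq start of each gene were read on GRCm38.p6. A start window was matched for 6 of the 8 genes. The letters searched on both strands were TCACNCCAC, a sterol regulatory element (SRE), CCAAT, the NF-Y box, and GGGCGG, the GC box that Sp1 binds. The SRE letters were in 1 of the 6 windows, that of Hmgcs1, and in 1.054% of 32841 windows of the same length. CCAAT was in 6 of 6, against 33.86% of all windows, and the GC box in 6 of 6, against 32.75%. For 16 other cholesterol synthesis genes, 16 windows were matched to 13 genes. Counted by gene, with a match in any of its windows, the SRE letters were in 0 of the 13, CCAAT in 12 and the GC box in 12, against 1.225%, 37.5% and 35.36% of 27018 genes. The windows of Tmem97, Hmgcs1 and Insig1 are shown because Tmem97 is the gene in question, Hmgcs1 holds the one SRE match and Insig1 is a feedback target of SREBP2. Capitals mark CCAAT, or ATTGG where it lies on the other strand, and the SRE. They are chr11:78550778-78550985 on the minus strand, chr13:119690101-119690350 on the plus strand and chr5:28071162-28071362 on the plus strand, and bases within an annotated exon are left out.
Tmem97: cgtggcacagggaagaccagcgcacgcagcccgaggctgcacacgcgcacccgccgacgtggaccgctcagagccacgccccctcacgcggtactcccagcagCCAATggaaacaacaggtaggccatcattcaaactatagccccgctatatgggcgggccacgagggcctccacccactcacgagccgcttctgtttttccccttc
Hmgcs1: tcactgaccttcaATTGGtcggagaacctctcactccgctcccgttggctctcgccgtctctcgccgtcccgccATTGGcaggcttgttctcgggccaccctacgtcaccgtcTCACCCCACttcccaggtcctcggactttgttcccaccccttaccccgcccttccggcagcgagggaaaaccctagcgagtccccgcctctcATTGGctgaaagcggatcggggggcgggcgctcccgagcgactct
Insig1: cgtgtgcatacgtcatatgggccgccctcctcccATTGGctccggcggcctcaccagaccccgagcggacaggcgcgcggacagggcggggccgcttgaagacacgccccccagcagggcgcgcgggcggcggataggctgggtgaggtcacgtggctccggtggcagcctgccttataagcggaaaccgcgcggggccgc

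In these windows the NF-Y letters of Tmem97 began 147 bases before the start, and a further match at 40 bases lay within an annotated first exon and is not shown. The SRE of Hmgcs1 began 137 bases before its start and lay between CCAAT boxes that began 176 and 45 bases before it. Such matches describe the letters of the windows. They are no measure of binding, and a window without a match says nothing about SREBP2.

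Tmem97 (ENSMUSG00000037278.9, chr11:78541817-78550777 on the minus strand of GRCm38) had log2 CPM values of 5.89, 5.61, 5.69 and 5.71 in Osterix-Cre 49 to 52 and 5.44, 5.44, 5.22 and 4.98 in Tgfbr2cko 53 to 56. All 4 mutant libraries lay below all 4 controls. The means were 5.72 ± 0.12 and 5.27 ± 0.22 (SD, n = 4 each), which are 52.8 and 38.6 CPM as geometric means. The difference was -0.45 (SE 0.155, 95% interval -0.79 to -0.12), or 0.731 times the control level, which is less than a 1.5-fold change. Without Tgfbr2cko 56, the lowest library, it was -0.36, and with libraries of the same title number averaged it was -0.45. Between 323 and 579 reads stood behind each value, and 38.5% of the transcript matches the pseudogene Gm5809 at 95% identity or more, so reads could be shared with that copy.

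Macrophage, endothelial and odontoblast markers also had lower median values in the mutants. Of 5 macrophage markers listed (Csf1r, Adgre1, Cd68, C1qa and Aif1), 5 were measured, 5 were lower in the mutants, as were 6215 of 12148 genes, and 2 were lower at an unadjusted p under 0.05, against 5.08% of all genes. The median difference was -0.50, and the 2 genes were Cd68 at -0.70 (adjusted p = 0.564) and Adgre1 at -0.50 (adjusted p = 0.434). Their summed level was 8.79 to 9.23 log2 CPM in Osterix-Cre libraries and 8.01 to 9.16 in Tgfbr2cko libraries, and none was at 0. Their r with Tmem97 over all libraries was positive for 5 of 5, with a median of 0.74, and within genotypes and with centred libraries it was positive for 4 of 5, with a median of 0.30. Without Tgfbr2cko 56, 0 of the 5 had an unadjusted p under 0.05. For that fit no share of all genes at this threshold was counted, here or below, and 5.08% belongs to all 8 libraries. With the 1.5-fold condition added, 701 genes passed in all libraries and 644 without Tgfbr2cko 56. Of 5 endothelial markers (Pecam1, Cdh5, Kdr, Tek and Emcn), 5 were lower and 2 had an unadjusted p under 0.05, against the same 5.08%. These were Tek at -0.64 (adjusted p = 0.124) and Emcn at -0.42 (adjusted p = 0.276). The endothelial markers had a median difference of -0.28 and summed levels of 7.73 to 8.19 in Osterix-Cre libraries and 7.44 to 7.83 in Tgfbr2cko libraries. Their r with Tmem97 was positive for 5 of 5 over all libraries, with a median of 0.39, and within genotypes and with centred libraries it was positive for 0 of 5, with a median of -0.47. None was at 0. Of 7 odontoblast markers, 5 were lower and 2 had an unadjusted p under 0.05, again against 5.08%, namely Nes at -0.81 (adjusted p = 0.235) and Bglap at -0.72 (adjusted p = 0.408). Without Tgfbr2cko 56, 1 of the 7 did. The odontoblast median was -0.71, and r with Tmem97 was positive for 7 of 7 over all libraries, with a median of 0.52, and for 5 of 7 within genotypes and with centred libraries, with a median of 0.25. The part of these cells in the Tmem97 level was not tested.

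None of the 7 sterol genes divided the genotypes in this way. Of the 8 genes, 1 had every mutant value below every control value, as had 3.14% of all genes, and 0 had every mutant value above, as had 2.13%. Since the rule used this contrast for Tmem97, nothing is read from that count. The median difference of the 8 genes was 0.00, with 4 lower and 4 higher, against -0.01 over all genes. None of the 8 changed by 1.5-fold or more, and no p-value is read for them. The study called a gene altered at an unadjusted p under 0.05 with a change of at least 1.5-fold, which 5.77% of all genes met here.

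**Figure D1:**
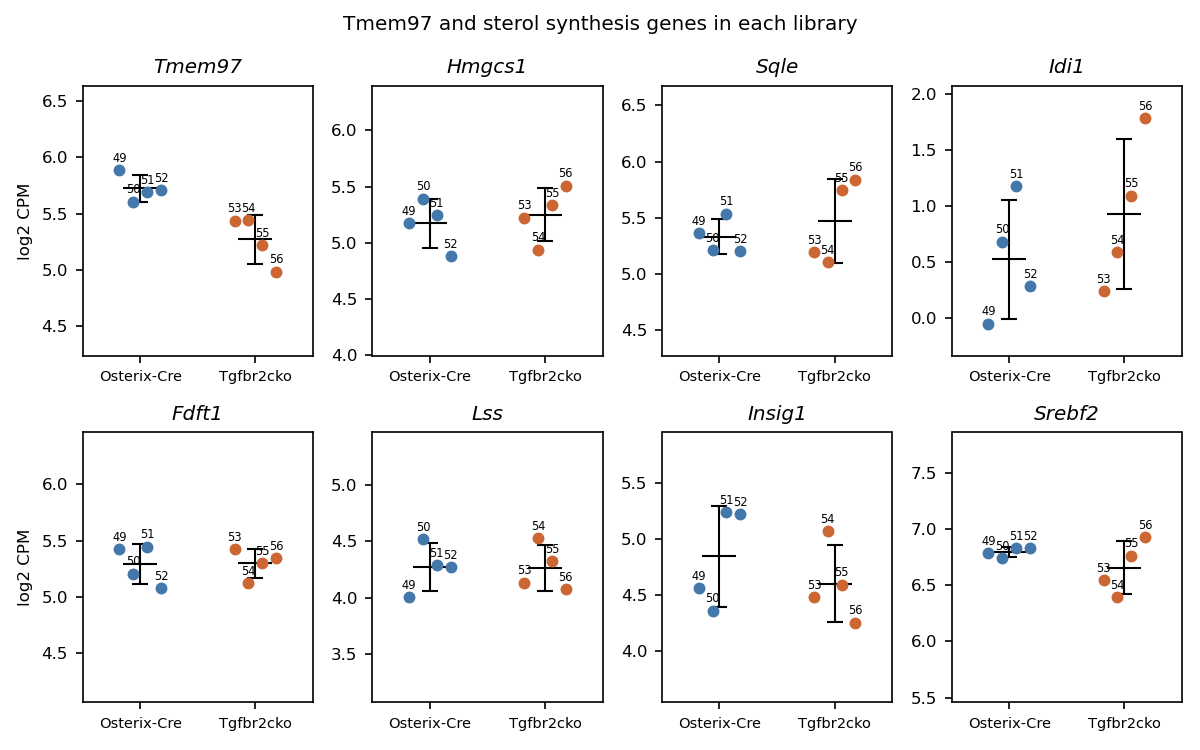
Log2 CPM of Tmem97 and 7 sterol genes in each library (points, labelled by library number), with the mean and SD of each genotype (bars) and an axis of equal span in every panel. For Tmem97 the 4 Tgfbr2cko values, 4.98 to 5.44, lie below the Osterix-Cre values, 5.61 to 5.89, while the genotypes overlap for the other 7 genes.

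Among the enzymes, Hmgcs1 makes HMG-CoA, an early intermediate of the route. Its log2 CPM values were 5.17, 5.39, 5.24 and 4.88 among controls against 5.22, 4.94, 5.34 and 5.51 among mutants. The genotypes overlapped, and the difference was 0.08 (SE 0.173, 95% interval -0.30 to 0.45), or -0.01 without Tgfbr2cko 56. Idi1, which interconverts the isoprenoid units, had -0.05, 0.68, 1.18 and 0.29 among controls against 0.24, 0.59, 1.09 and 1.78 among mutants. Its difference was 0.40 (SE 0.429, 95% interval -0.53 to 1.33), with 9 to 46 reads per library, so that it was measured far less precisely than the others. Without Tgfbr2cko 56, its highest library, the Idi1 difference was 0.12.

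Fdft1, or squalene synthase, commits isoprenoids to sterols. Its values were 5.43, 5.21, 5.45 and 5.08 among controls against 5.43, 5.12, 5.30 and 5.34 among mutants, a difference of 0.01 (SE 0.152, 95% interval -0.32 to 0.34). All 4 mutant values fell inside the control range. Sqle, the epoxidase that acts on squalene and a second control point of the route, had 5.36, 5.21, 5.54 and 5.21 among controls against 5.20, 5.10, 5.74 and 5.84 among mutants. The mutants fell into libraries 55 and 56, above every control, and libraries 53 and 54, below every control. The Sqle difference was 0.14 (SE 0.19, 95% interval -0.27 to 0.55), and 0.02 without Tgfbr2cko 56. Lss, which closes the ring to give lanosterol, had 4.01, 4.52, 4.29 and 4.27 among controls against 4.13, 4.53, 4.32 and 4.08 among mutants. Its difference was -0.01 (SE 0.185, 95% interval -0.41 to 0.39).

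Of the regulators, Insig1 had 4.56, 4.36, 5.24 and 5.22 among controls against 4.48, 5.07, 4.59 and 4.25 among mutants. The 2 control libraries 51 and 52 and the mutant library 54 were high, and the genotypes overlapped, with a difference of -0.24 (SE 0.24, 95% interval -0.76 to 0.27), or -0.13 without Tgfbr2cko 56. Of the 8 genes, Srebf2 varied least among the controls, at 6.78, 6.74, 6.83 and 6.83, and had 6.55, 6.39, 6.76 and 6.92 in the mutants. Libraries 53 and 54 lay below the controls and library 56 above them, and the difference was -0.14 (SE 0.145, 95% interval -0.45 to 0.18), or -0.23 without library 56. The intervals of all 7 sterol genes took in 0. Of these genes, Fdft1 shares 18.3% of its exon bases with Ctsb on the opposite strand, and 54.7% of its transcript matches other genes at 95% identity or more, as does 33.3% of that of Idi1. The strand setting of the counting is not given in the sources used here.

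Levels were compared between genes per kilobase of exon. Tmem97 was the highest of the 8, at 5.04 ± 0.29 log2 CPM per kb (SD over 8 libraries), followed by Srebf2 at 3.88 ± 0.17. Each was above the next gene in 8 of 8 libraries, and their ranges did not overlap. Fdft1 (3.21), Insig1 (3.09), Hmgcs1 (3.01) and Sqle (2.93) followed, and neighbours in that order overlapped and exchanged places between libraries. Lss, at 0.84, and Idi1, at -1.08, were the lowest, and each lay below the gene before it in 8 of 8 libraries. These levels depend on the exon length in the annotation.

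The rest of the pathway was tested on the fit over all 12148 genes. Of 16 other cholesterol synthesis genes, 16 were measured, and 0 of them fell and 0 rose at an unadjusted p under 0.05 by limma, against 5.08% and 3.30% of all genes. Their median difference was -0.02. The extremes were Pmvk, phosphomevalonate kinase, at -0.26 (SE 0.2, unadjusted p = 0.216, adjusted p = 0.895) and Tm7sf2, a sterol reductase, at 0.31 (SE 0.236, unadjusted p = 0.216, adjusted p = 0.895). The exact permutation p over the 70 arrangements of the libraries, of which 0.0286 is the smallest possible, was 0.257 for Pmvk and 0.229 for Tm7sf2. Without Tgfbr2cko 56, the Pmvk difference was -0.10 (unadjusted p = 0.584 by limma). Without Osterix-Cre 49, the Tm7sf2 difference was 0.49 with an unadjusted p of 0.0496 by limma, and it was the 1 gene of the 16 to pass in any fit without a library. A p above the threshold does not show that these genes were equal, and their SE ran from 0.155 to 0.467.

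**Figure D2:**
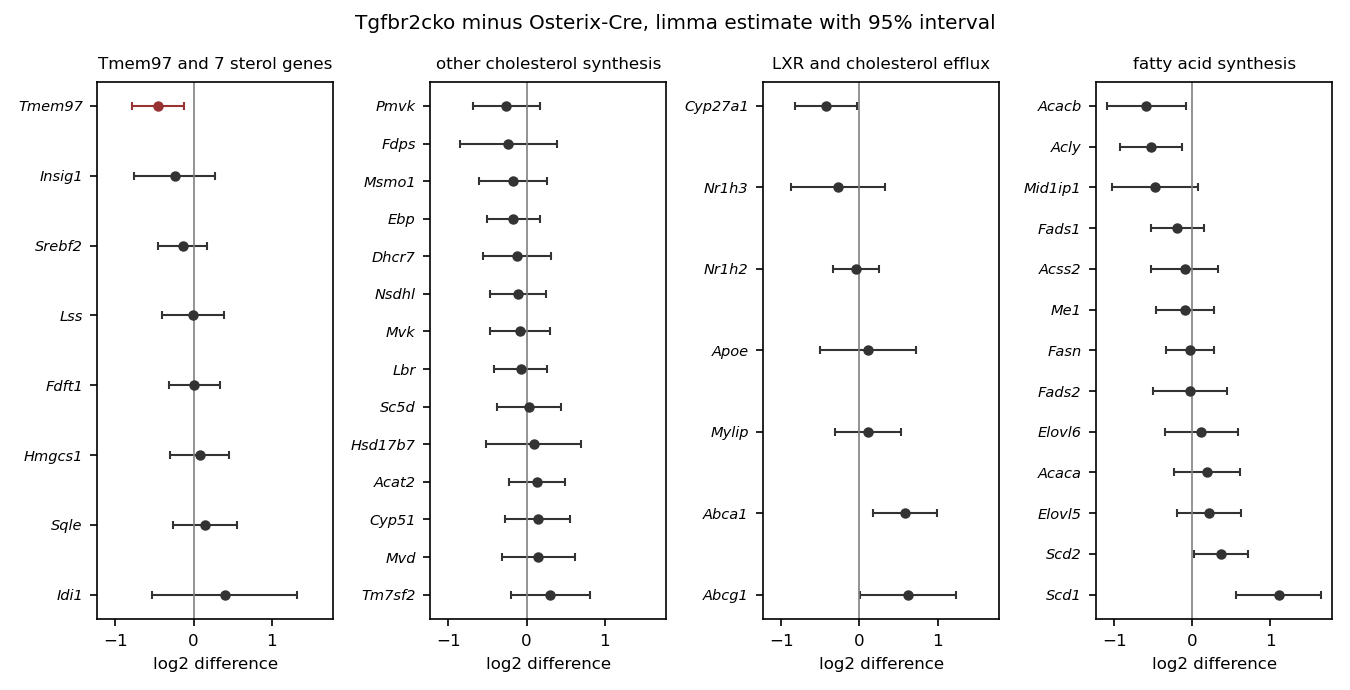
Difference in log2 CPM, Tgfbr2cko minus Osterix-Cre, for Tmem97 and 7 sterol genes, 14 of the 16 other cholesterol synthesis genes, 7 genes of cholesterol efflux and 13 of fatty acid synthesis (points, limma estimates, with bars for 95% intervals). Tmem97, which was chosen on this difference, lies at -0.45, the other synthesis genes plotted lie between -0.26 and 0.40, and Scd1 at 1.11 is the farthest to the right.

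The genes that sense sterols and process SREBP gave 0 of 8 measured that fell and 1 that rose at an unadjusted p under 0.05, against 5.08% and 3.30% of all genes. That gene was Rnf145, a sterol-responsive ubiquitin ligase, with a difference of 0.34 (SE 0.154, unadjusted p = 0.0438, adjusted p = 0.566). Its values were 6.63, 7.17, 7.13 and 6.72 among controls against 7.18, 7.31, 7.32 and 7.20 among mutants, so all 4 mutants were above the controls. Of the 8 fits that left out a library, Rnf145 passed in 3, those without 50, 51 or 56. Of 7 measured genes of sterol uptake and transport, out of 8 listed, 0 passed in either direction. The highest was Npc2, the soluble lysosomal partner of NPC1, at 0.18 (unadjusted p = 0.206, adjusted p = 0.885) and 0.11 without library 56, and the lowest Stard4, a cholesterol carrier, at -0.36 (unadjusted p = 0.141, adjusted p = 0.824). With each library centred on its median, 1 of these 7 fell and 0 rose at an unadjusted p under 0.05, against 6.24% and 3.81% of all genes in that fit. The gene that fell was Scarb1, an HDL receptor, named after its values were seen, at -0.35 (unadjusted p = 0.0262 by limma). Without centring it did not pass (unadjusted p = 0.0525, adjusted p = 0.607).

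Cholesterol efflux was the next side of the pathway. Of 7 measured genes of 8 listed that LXR controls or that carry or oxidise cholesterol, 2 rose and 1 fell at an unadjusted p under 0.05, against 3.30% and 5.08% of all genes. Abca1, which exports cholesterol to apolipoproteins, had 6.84, 6.64, 6.24 and 6.27 among controls against 7.51, 6.96, 7.05 and 6.78 among mutants. Its difference was 0.58 (SE 0.189, unadjusted p = 0.00882, adjusted p = 0.249, exact permutation p = 0.0571), and it passed in 8 of 8 fits without a library. Abcg1, which exports cholesterol to HDL, had 6.21, 6.98, 6.13 and 6.02 among controls against 7.24, 7.26, 7.30 and 6.02 among mutants. Its difference was 0.62 (SE 0.284, unadjusted p = 0.0485, adjusted p = 0.588), with library 56 at the level of the lowest control. Without that library, the Abcg1 difference was 0.93 with an unadjusted p of 0.000531. Of the 8 fits that left out a library, Abcg1 passed in 2, those without 50 or 56. Cyp27a1, the sterol 27-hydroxylase, was lower by -0.42 (SE 0.184, unadjusted p = 0.0384, adjusted p = 0.533), and without library 56 by -0.29 with an unadjusted p of 0.104. It passed in 4 of the 8 fits, those without 50, 52, 53 or 54. None of the 3 passed after adjustment, which 0.947% of all genes, or 115, did. That count was 65 without Osterix-Cre 51, 70 without Osterix-Cre 52, 72 without Tgfbr2cko 55 and 258 with library weights. Without library 56, 3 of the 7 measured genes rose and 0 fell at the unadjusted threshold. The gene gained was Mylip, named after its values were seen, at 0.33 (unadjusted p = 0.022 by limma), against 0.12 (unadjusted p = 0.566) in all libraries. Ch25h was not among the genes analysed.

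In fatty acid synthesis, the sister route that SREBP1 drives, 2 of 13 measured genes rose and 2 fell at an unadjusted p under 0.05, against 3.30% and 5.08% of all genes. Scd1, the stearoyl-CoA desaturase, had 4.55, 4.88, 5.59 and 5.53 among controls against 6.08, 6.64, 6.48 and 5.77 among mutants. All 4 mutants lay above the controls, at 2.15 times their level, with a log2 difference of 1.11 (SE 0.252, unadjusted p = 0.00074, adjusted p = 0.0633, exact permutation p = 0.0286). Scd2, its paralog, was higher by 0.36 (SE 0.159, unadjusted p = 0.0393, adjusted p = 0.54). Acly, which supplies acetyl-CoA to both routes, was lower by -0.53 (SE 0.183, unadjusted p = 0.0132, adjusted p = 0.308). Acacb, an acetyl-CoA carboxylase, was lower by -0.59 (SE 0.234, unadjusted p = 0.0259, adjusted p = 0.436). With centred libraries 3 of the 13 fell and 1 rose, against 6.24% and 3.81% of all genes. Scd2 then did not pass (unadjusted p = 0.0518 by limma). Mid1ip1, named after its values were seen, fell by -0.48 (unadjusted p = 0.0494 by limma). Without library 56, Scd1 and Acly kept an unadjusted p under 0.05, and Scd2 and Acacb did not, at 0.0766 and 0.0692 by limma. Scd1 and Acly passed in 8 of 8 fits without a library, Scd2 in 3, those without 51, 53 or 54, and Acacb in 4, those without 49, 50, 53 or 55. In the isoprenoid branch, 0 of 8 genes passed, from Nus1 at -0.19 (unadjusted p = 0.279, adjusted p = 0.931) to the farnesyltransferase subunit Fntb at 0.45 (unadjusted p = 0.164, adjusted p = 0.841). Fntb was high in Osterix-Cre 49, and without that library its difference was 0.80, with an unadjusted p of 0.00328 by limma, so that it passed.

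Among the relatives of Tmem97, 5 of 6 listed EXPERA family and sigma receptor genes were measured, and 0 fell and 1 rose at an unadjusted p under 0.05, against 5.08% and 3.30% of all genes. Ebpl, an EBP-like protein, was higher by 0.29 (SE 0.135, unadjusted p = 0.0488, adjusted p = 0.589). Its values were 5.75, 5.67, 5.69 and 5.61 among controls against 6.03, 5.97, 5.80 and 6.09 among mutants. Ebpl passed in 1 of the 8 fits without a library, that without 55. No relative fell at this threshold. Tm6sf2 was not among the genes analysed.

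The study named Tmem97 together with 10 other genes as axonal: Tmem178, Tmem47, Tmem88, Tmem94, Trpm3, Fxyd2, Fxyd6, Syt5, Syt15 and Mypn. The study credits the axonal expression of the Tmem and Fxyd genes and Trpm3 to an earlier report on mouse molars. It also reports lower Mypn by qPCR, MYPN labelling in axonal structures and less β3 tubulin, a neuronal marker, in mutant molars. The 10 genes were named because they were lower in this RNA-Seq, so their direction here is not independent evidence. All 10 were lower in Tgfbr2cko, with a median difference of -0.83, and 9 had an unadjusted p under 0.05, against 5.08% of all genes in that direction. Fxyd6, a regulator of the sodium pump, was lower by -1.54 (SE 0.265, adjusted p = 0.0122), and Mypn, a sarcomere protein, by -1.63 (SE 0.29, adjusted p = 0.0159). Trpm3, a cation channel, had -0.50 (unadjusted p = 0.0741, adjusted p = 0.674), with -0.29 (unadjusted p = 0.221) without library 56 and an unadjusted p under 0.05 without 52 or without 53. With centred libraries Trpm3 also passed (unadjusted p = 0.0474 by limma), so that 10 of the 10 did, against 6.24% of all genes in that fit. Tmem97, at -0.45, lay closer to 0 than any of the 10, but not without library 56, where it was -0.36 and Trpm3 -0.29. Without library 56, 7 of the 10 had an unadjusted p under 0.05, in a fit for which no share of all genes was counted. Of 11 axon markers listed, 4 were among the genes analysed (Tubb3, Uchl1, Gap43 and Stmn2), and 0 of these fell or rose at that threshold. Without library 56, 1 of the 4 rose, Gap43, a growth cone protein gene, at 0.62 (unadjusted p = 0.0302 by limma), against 0.42 (unadjusted p = 0.146) with it. Their summed level was 6.58 to 6.90 log2 CPM in the controls and 6.81 to 7.55 in the mutants. Prph, Nefl, Nefm, Nefh, Scn9a and Calca were not among the genes analysed. Of 9 Schwann cell and myelin markers, 4 were analysed, and 0 fell and 1 rose at an unadjusted p under 0.05, against 5.08% and 3.30% of all genes. It was Mbp, the myelin basic protein gene, at 0.57 (SE 0.207, unadjusted p = 0.0158, adjusted p = 0.337). The 4 genes had summed levels of 7.52 to 8.12 in the controls and 7.58 to 8.03 in the mutants. In bulk pulp, fewer cells or axons of a type and less RNA in each cannot be told apart.

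Co-variation over the 8 libraries showed whether Tmem97 rose and fell with the sterol genes. Across all libraries, Pearson's r with Tmem97 was -0.53 for Hmgcs1, -0.61 for Sqle, -0.75 for Idi1, 0.00 for Fdft1, 0.02 for Lss, 0.47 for Insig1 and -0.05 for Srebf2. The median over these 7 genes was -0.05, against 0.20 over all genes. These values hold the genotype difference that chose Tmem97, and they are given as a description. Without the 2 libraries farthest from the median of Tmem97, 49 and 56, they were -0.30 for Hmgcs1, -0.40 for Sqle and -0.19 for Idi1, so the values of the first 3 genes rest in part on those libraries.

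Within genotypes, each library was centred on its median and each gene on its genotype means. This leaves out the difference that chose Tmem97. The r with Tmem97 was then -0.61 for Hmgcs1, -0.42 for Sqle, -0.77 for Idi1, -0.03 for Fdft1, -0.52 for Lss, 0.25 for Insig1 and -0.35 for Srebf2. Without the centring, r was -0.67 for Hmgcs1, -0.71 for Sqle, -0.88 for Idi1, 0.05 for Fdft1, 0.01 for Lss, 0.37 for Insig1 and -0.81 for Srebf2 (exact permutation p = 0.0885 for Srebf2), against a median of 0.37 over all genes. The value for Lss thus depended on the centring. The median of the 7 with centred libraries was -0.42, against 0.06 over all genes, and without Tgfbr2cko 56 it was -0.23, against 0.03. For Idi1, rho was -0.79, and an exact permutation within genotypes (576 arrangements, two-sided) gave p = 0.0243 for r and p = 0.0382 for rho. For Hmgcs1, rho was -0.67, with exact permutation p = 0.0764 for r and p = 0.0833 for rho. For Sqle, rho was -0.43, with exact permutation p = 0.214 for r and p = 0.264 for rho. There were 7 such relations, and the adjustment is taken from the slopes of all genes below. Leaving out each library in turn, r ran from -0.90 to -0.74 for Idi1, from -0.90 to -0.54 for Hmgcs1 and from -0.70 to -0.23 for Sqle, with the weakest values of the last 2 without library 56. It ran from -0.83 to -0.17 for Lss, from -0.58 to -0.08 for Srebf2, from -0.53 to 0.26 for Fdft1 and from -0.23 to 0.67 for Insig1. The -0.08 for Srebf2 was the value without library 56. Idi1 rests on few reads, and its counting error enters these values.

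In the limma fit of every other gene on Tmem97 with genotype as a term, 0 of 12147 genes passed after adjustment, or 0%. That count was 162 without Osterix-Cre 49, 207 without Osterix-Cre 50, 1 without Tgfbr2cko 56 and 0 without each of the other libraries. At an unadjusted p under 0.05, 12.0% of genes had a positive slope and 3.15% a negative one. With centred libraries these shares were 2.14% and 1.81%. Both directions together came to 1838 genes, and to 580 without Tgfbr2cko 56, 952 without Tgfbr2cko 53 and 2884 without Osterix-Cre 50, so the shares set beside the counts here depend on the libraries used. Idi1 had a slope of -3.03 log2 units per unit of Tmem97 (unadjusted p = 0.0213, adjusted p = 0.282), and -3.78 with centred libraries (unadjusted p = 0.0388, adjusted p = 0.953). Sqle had -1.17 (unadjusted p = 0.0489, adjusted p = 0.329), and -1.13 with centred libraries (unadjusted p = 0.243, adjusted p = 0.953). Of the 7 sterol genes, 0 had a positive slope at an unadjusted p under 0.05 in either fit. Of the 16 other cholesterol synthesis genes, 1 had a positive slope and 1 a negative one at that threshold, and 0 had either with centred libraries. These were Pmvk at 1.40 (unadjusted p = 0.0214, adjusted p = 0.282) and Hsd17b7, a ketoreductase of the route, at -1.99 (unadjusted p = 0.0205, adjusted p = 0.28). Within genotypes and with centred libraries the r of the 16 with Tmem97 was positive for 8, with a median of 0.02. Of 48 measured genes on the 6 other pathway lists, 4 had a positive slope at that threshold and 0 a negative one, against 12.0% and 3.15% of all genes. They were Npc1, whose product binds TMEM97, at 1.61 (unadjusted p = 0.00757, adjusted p = 0.237), Cyp27a1 at 1.15 (unadjusted p = 0.0448, adjusted p = 0.326), Acss2, an acetyl-CoA synthetase, at 1.33 (unadjusted p = 0.0291, adjusted p = 0.299) and Pdss2, a subunit of the enzyme that makes the ubiquinone side chain, at 2.13 (unadjusted p = 0.0248, adjusted p = 0.29). With centred libraries 1 of the 48 was positive and 1 negative, against 2.14% and 1.81%. They were Acss2 at 1.59 (unadjusted p = 0.0311, adjusted p = 0.953) and Rnf145 at -1.28 (unadjusted p = 0.016, adjusted p = 0.953). Of the 5 macrophage markers, 4 had a positive slope at that threshold, against 12.0% of all genes, and 0 with centred libraries. The enamel organ markers Amelx, Ambn, Enam, Krt14 and Cdh1 had negative slopes, against 3.15% of all genes. So had the axon marker Tubb3 and the erythroid marker Alas2. The smallest p was that of Cdh1 (slope -4.98, unadjusted p = 0.000106, adjusted p = 0.111). The mesenchyme markers Pax9 and Barx1 had positive slopes. With centred libraries none of these passed, and the odontoblast marker Bglap did, at 2.53 (unadjusted p = 0.0241, adjusted p = 0.953). The negative relations of Idi1 and Sqle did not pass after adjustment.

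**Figure D3:**
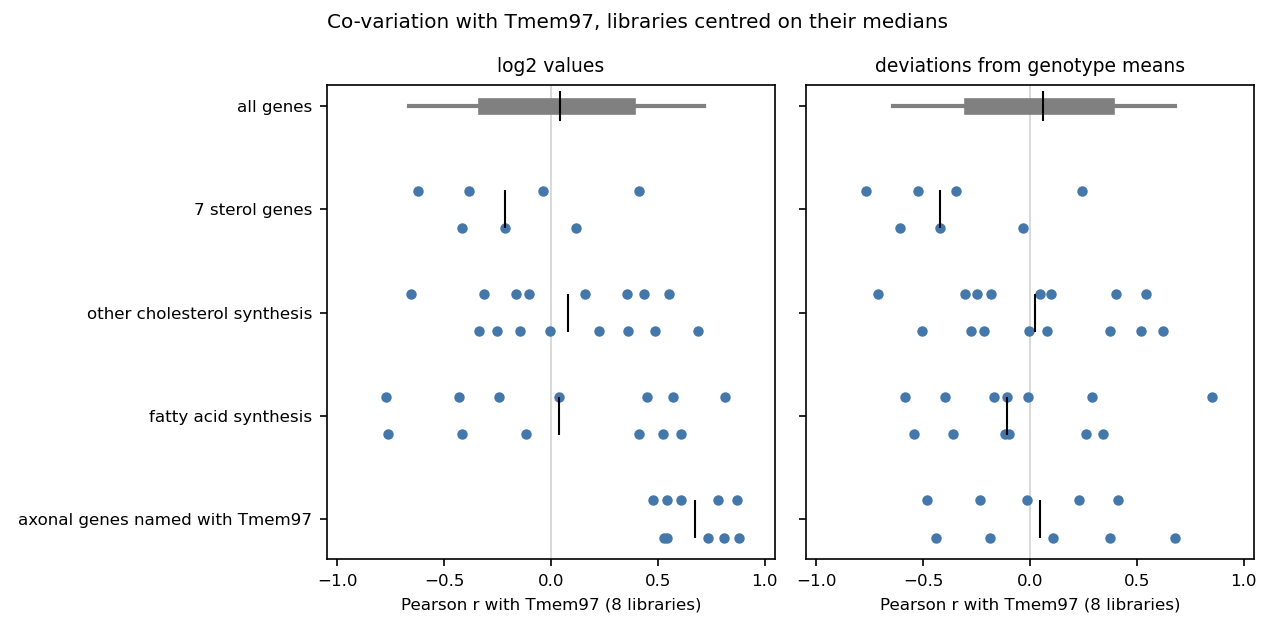
Pearson's r with Tmem97 over 8 libraries for 4 gene lists (points, with vertical bars for medians) and for all genes (thick line, middle 50%, thin line, middle 90%, bar, median), on centred log2 values (left) and on deviations from the genotype means (right). The 10 axonal genes lie right of 0 on the left and spread around 0 on the right, with medians of 0.67 and 0.05, while the 7 sterol genes have medians of -0.21 and -0.42. The left panel holds the genotype difference on which Tmem97 and the axonal genes were named.

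The 10 axonal genes were set against Tmem97 in the same way. Their r with Tmem97 over centred values was positive for 10 of 10, with a median of 0.67, which the choice of genes lower in the same mutants favours. Within genotypes and with centred libraries, 5 of the 10 were positive, with a median of 0.05, against 0.06 over all genes. Without centring, 7 were positive, with a median of 0.49, against 0.37. Trpm3 had a slope of 2.03 on Tmem97 (unadjusted p = 0.00748, adjusted p = 0.237), and 1.74 with centred libraries (unadjusted p = 0.0731, adjusted p = 0.953). The genes with a pattern most like that of Tmem97 over the 8 libraries were Rbfox1 (r = 0.98), Fbxo36 (0.97), Ifi35 (0.96), Gng2 (0.96) and Wdyhv1 (0.96). Within genotypes and without centring they were Fam78b (r = 0.99), Wsb1 (0.98), Atf1 (0.98), A930003O13Rik (0.97) and Fgfrl1 (0.97). With centred libraries they were Snhg18 (0.98), Wsb1 (0.97), Zbtb10 (0.97), Setbp1 (0.96) and Ptges3l (0.96). Only Wsb1 was shared, so the nearest genes depended on the centring. The genes named are the highest of 12147 values and are given as a description.

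Among themselves, Hmgcs1, Sqle and Idi1 varied together. Within genotypes and with centred libraries, their 3 pairs had r from 0.72 to 0.81, against a median of 0.01 over all pairs of genes. Without Tgfbr2cko 56, which was the highest library for all 3, r was 0.56 for Hmgcs1 with Sqle, 0.35 for Hmgcs1 with Idi1 and 0.58 for Sqle with Idi1. The 21 pairs of the 7 sterol genes had a median of 0.30, with 13 positive and a range from -0.72 to 0.93. These 3 genes were picked out after their values were seen, and no test is given.

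Each of the 8 genes was also set against 9 marker lists, within genotypes and with centred libraries. Of these 72 relations, 10 had an exact permutation p under 0.05 for r, and 0 passed after adjustment for r or for rho. Such relations were not computed for all genes, so the count and the r values below have no background share. The enamel organ surrounds the molar, and the study's methods state that the pulp was extracted from it. Reads on Amelx and Ambn remained in every library, up to 18.45% in Tgfbr2cko 56. Of 9 enamel organ markers listed (Amelx, Ambn, Enam, Amtn, Odam, Klk4, Mmp20, Krt14 and Cdh1), 9 were measured, and their summed level was 12.0 to 14.5 log2 CPM in the controls and 12.1 to 17.6 in the mutants. None of these markers was at 0. Amelx and Ambn make up most of that sum, and the 9 did not move one way between the genotypes, with 5 higher and 4 lower. Klk4, an enamel protease gene, fell by 2.71 on the log2 scale (adjusted p = 0.000136) and Cdh1, an epithelial cadherin gene, rose by 1.15 (unadjusted p = 0.0373, adjusted p = 0.527). At an unadjusted p under 0.05, 1 of the 9 was lower and 1 higher, against 5.08% and 3.30% of all genes, and without Tgfbr2cko 56 these were 2 and 0. Within genotypes and with centred libraries, r with the mean of these markers was 0.93 for Sqle and 0.91 for Srebf2. For Sqle, rho was 0.86, with exact permutation p = 0.0243 for r (adjusted p = 0.268 over 72 relations of 8 genes with 9 marker lists) and p = 0.104 for rho (adjusted p = 0.571). For Srebf2, rho was 0.88, with exact permutation p = 0.026 for r (adjusted p = 0.268) and p = 0.0469 for rho (adjusted p = 0.438). Without the 2 libraries with the most extreme marker means, 53 and 56, r was 0.83 for Sqle and 0.80 for Srebf2, and without 56 alone it was 0.85 and 0.78. Hmgcs1 and Fdft1 had r of 0.71 and 0.71, Idi1 0.63, Lss -0.20, Insig1 -0.13 and Tmem97 -0.13. Without Tgfbr2cko 56, r fell to 0.33 for Hmgcs1, 0.49 for Fdft1 and 0.16 for Idi1. For Tmem97 it was 0.23 without 56 and 0.34 without 53 and 56. With all libraries and no centring it was -0.59, so the Tmem97 value depended on the scaling and on library 56. The part of the enamel organ in these levels was not tested.

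The other lists were set against these genes in the same way. With the 4 axon markers, r was 0.85 for Fdft1, 0.81 for Srebf2, 0.79 for Hmgcs1 and 0.78 for Sqle, and without Tgfbr2cko 56 it was 0.79, 0.37, 0.43 and 0.46. Idi1 had 0.50, Lss -0.41 and Insig1 -0.40. Tmem97 had -0.05, but 0.50 without Tgfbr2cko 56 and -0.70 without 49 and 56. For Fdft1 with these markers, rho was 0.86, with exact permutation p = 0.0122 for r (adjusted p = 0.268) and p = 0.0208 for rho (adjusted p = 0.375). Srebf2 had r of 0.87 with 3 erythroid markers, -0.85 with 5 macrophage markers and -0.85 with 7 dental mesenchyme markers. Without Tgfbr2cko 56 these were 0.50, -0.56 and -0.36. Of the 7 dental mesenchyme markers, 1 fell at an unadjusted p under 0.05 and 0 rose, against 5.08% and 3.30% of all genes. It was Lhx8, a transcription factor gene, at -0.79 (adjusted p = 0.0475).

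**Figure D4:**
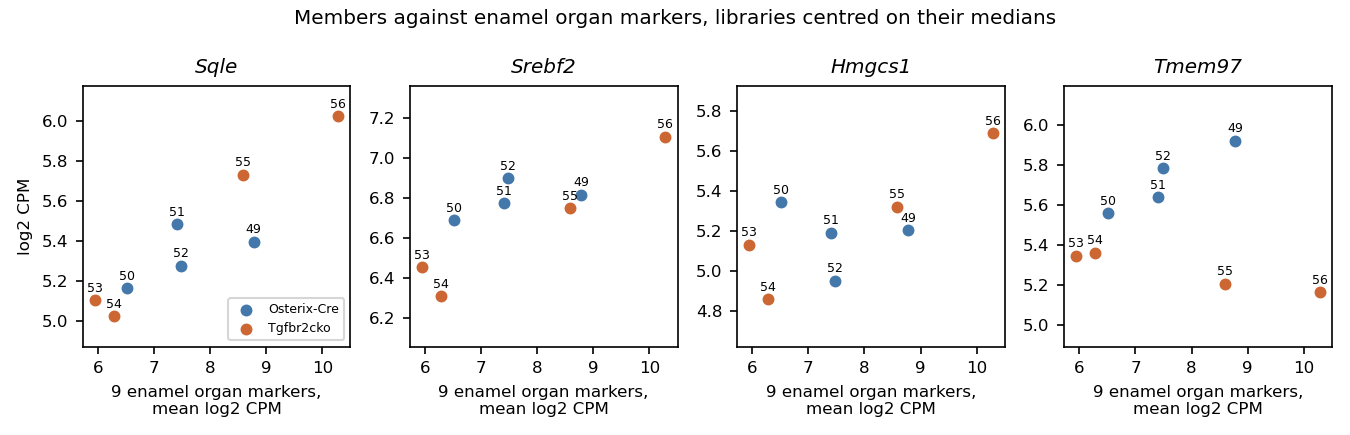
Log2 CPM of Sqle, Srebf2, Hmgcs1 and Tmem97 against the mean log2 CPM of 9 enamel organ markers, with each library centred on its median and shown as a point coloured by genotype and labelled by number. Sqle and Srebf2 are highest in Tgfbr2cko 56, the library with the highest markers, while Tmem97 is lowest in that library. The part of the enamel organ in these levels was not tested.

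For Insig1 the largest of the 9 relations was with odontoblasts. Within genotypes and with centred libraries, its r with 7 odontoblast markers, of 7 listed (Dspp, Dmp1, Phex, Col1a1, Nes, Bglap and Sp7), was 0.87 and rho 0.86. Exact permutation gave p = 0.0174 for r (adjusted p = 0.268 over 72 relations) and p = 0.0104 for rho (adjusted p = 0.333). Without the 2 libraries with the most extreme marker means, 50 and 52, r was 0.74. The summed level of these markers was 15.5 to 16.6 log2 CPM in the controls and 14.8 to 15.9 in the mutants. None of them was at 0. The part of the odontoblasts in the Insig1 levels was not tested.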

How the data were processed

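RNA was amplified from a low input, and libraries were sequenced by the authors. Per the labels and the study's methods, the authors processed reads with fastp 0.21.0, aligned them with HISAT2 2.1.0 to GRCm38.p5 (written GRCh38 in the methods), counted them with featureCounts of Subread 2.0.1 on GENCODE M14, kept genes that the CLEAR workflow lists as quantifiable, and applied voom from limma. The deposited values are therefore log2 CPM, read counts divided by library size after 0.5 is added to each count. Whole reads were recovered for all 97184 values, to within 3.33e-08 of a whole read. Symbols were found for 12144 of 12148 identifiers. CPM without molecular identifiers carries amplification noise, so depth limits the precision most for Idi1.

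Genotypes were compared with limma 3.58.1 (R 4.3.3) on the deposited values with an intensity trend. P-values were adjusted by Benjamini-Hochberg over 12148 genes, or over 12147 for slopes on Tmem97. They measure the spread between libraries, which may be technical. The fits were tested on simulated data. Correlations used exact permutations. Positions come from GENCODE M21 and promoter windows from RefSeq, both on GRCm38. Figures were drawn with matplotlib 3.10.9.

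The members and all lists were chosen with earlier results of these data known. Genes were named by rule: the 8 members, Tgfbr2, the 10 axonal genes, each gene of a pathway list with an unadjusted p under 0.05 or else the highest and lowest of that list, the 5 nearest to Tmem97 in each of 2 measures, and marker genes where their list stands beside a result. After values were seen, every pathway gene with a slope at an unadjusted p under 0.05 and the 5 nearest with centred libraries were named as well. Other normalizations, weights, a filter, an enamel covariate, averaged title numbers and left-out libraries were tried. Some genes of the lists are counted but not reported by name here.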

Additional observations from a re-analysis of the deposited data

Results flagged for a closer look

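In 70 groups of 4 libraries, the gap from the highest or lowest library to the nearest other was set against the range of the group, and 5 groups passed Dixon's 95% critical value. Chance flags about 1 group in 20, and none of the 8 genes was flagged in either genotype. Abcg1 was far lower in Tgfbr2cko 56, at 6.02 log2 CPM against 7.24 to 7.30 in the other 3 mutants. Fxyd6 was also far lower in that library, at 6.26 against 7.25 to 7.37. Fntb was far higher in Osterix-Cre 49, at 4.85 against 3.35 to 3.56. The share of reads on Amelx and Ambn was far higher in Tgfbr2cko 56, at 18.45% against 0.347% to 2.74%, and in Osterix-Cre 49, at 2.14% against 0.326% to 0.548%.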

How the results depend on the processing

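The Tmem97 difference stayed negative, between -0.51 and -0.36, in 16 alternatives. Altered genes numbered 701 in the deposited values and 625 to 947 without 1 library. Other cholesterol synthesis genes at an unadjusted p under 0.05 numbered 0, and 0 to 1 without 1 library. Genes associated with Tmem97 after adjustment numbered 0, and 0 to 207 without 1 library. For Idi1, r with Tmem97 was -0.67 after quantile normalization, -0.62 after median centring and -0.19 without the 2 libraries farthest from the median of Tmem97. For Fdft1, r was 0.00 in the deposited values, -0.0026 after quantile normalization, -0.0368 after centring, -0.15 without those 2 libraries and -0.0347 as centred deviations. For Lss, r was -0.26 after quantile normalization, -0.21 after centring, -0.52 as centred deviations and -0.59 with the enamel matrix genes as a further term. For Srebf2, r was 0.0569 after quantile normalization, 0.12 after centring, 0.41 without the 2 libraries and -0.81 as deviations from the genotype means. Without 1 library, r ran from -0.91 to -0.50 for Idi1, from -0.26 to 0.24 for Fdft1, from -0.42 to 0.45 for Lss and from -0.18 to 0.45 for Srebf2. The cause was not tested. Centred deviations and those with the enamel term were chosen after seeing the data. No paired analysis was possible because the genotypes share only the title number 2, which the labels do not explain.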
